A study of Rattus norvegicus with 24 samples.

Results

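The 8 rat genes described here are Pxmp4, Zfp597, Fry, Septin5, Chi3l1, Actr8, Adpgk and Il18, chosen by their measured array signal in the rostral ventrolateral medulla (RVLM), which was called higher in the spontaneously hypertensive rat (SHR) than in the Wistar-Kyoto rat (WKY), its normotensive control, by 1.63-fold for Il18 up to 5.21-fold for Pxmp4. Every probe set that the array annotation gives to a single one of these genes was taken, which made 15 of the 31042 probe sets, and 8 of the 14217 named genes. A probe set is a group of short array probes that together report on 1 transcript.

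Gene expression was measured on 24 rat expression arrays. The groups were the neurointermediate lobe of the pituitary of SHR (NIL, 5 arrays), the paraventricular nucleus of SHR (PVN, 5 arrays), the supraoptic nucleus of SHR (SON, 4 arrays), the RVLM of SHR (5 arrays) and the RVLM of WKY (5 arrays). Each array carried RNA pooled from 5 male rats of 10 to 13 weeks (10 to 12 weeks for NIL array 2), so n counts pools, and rats of a pool cannot be told apart. The labels name no treatment, and WKY arrays of NIL, PVN and SON were not analysed here. A level in SHR NIL, PVN or SON could therefore be set only beside the RVLM of either strain, where strain and structure cannot be told apart.

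The RVLM holds neurons that drive sympathetic outflow to the heart and blood vessels. The PVN and SON hold the magnocellular neurons that make vasopressin and oxytocin, and the NIL holds their nerve endings beside the melanotrophs of the intermediate lobe. The 8 genes belong to unrelated systems. Pxmp4 encodes a peroxisomal membrane protein, Adpgk a glucokinase that uses ADP in place of ATP, and Actr8 an actin-related subunit of the INO80 chromatin remodelling complex. Septin5 is a septin, a GTP-binding protein that forms filaments and, in rodents, meets the exocytosis machinery at nerve endings. Fry is the mammalian relative of Drosophila furry, a large scaffold that works with NDR kinases, and Zfp597 is a zinc finger protein. Chi3l1 is a secreted chitinase-like protein made by reactive astrocytes and macrophages, and Il18 is a cytokine of the interleukin-1 family that is released after caspase-1 cuts its precursor.

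The start regions of 4 of the genes are shown because they stand for the patterns described below: Pxmp4 had the largest strain difference, Actr8 the most even level over the SHR structures, Adpgk a level that was highest in the SHR RVLM, and Il18 its highest level in the NIL. Each sequence runs from 250 bases before to 50 bases after the annotated start of the gene, 5′ to 3′ on the gene's strand, from RefSeq on the build GRCr8, which is neither SHR nor WKY sequence. Capitals mark the motif CCAAT on either strand (CCAAT or ATTGG). The intervals are chr3:163570780-163571079 on the minus strand for Pxmp4, and on the plus strand chr16:5170445-5170744 for Actr8, chr8:68595022-68595321 for Adpgk and chr8:59801822-59802121 for Il18.
Pxmp4: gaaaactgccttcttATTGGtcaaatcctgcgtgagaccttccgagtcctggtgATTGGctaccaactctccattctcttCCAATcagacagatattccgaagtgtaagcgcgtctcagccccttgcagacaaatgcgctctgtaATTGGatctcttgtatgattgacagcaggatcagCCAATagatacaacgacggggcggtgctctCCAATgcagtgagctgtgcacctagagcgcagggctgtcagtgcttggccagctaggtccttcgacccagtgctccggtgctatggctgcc
Actr8: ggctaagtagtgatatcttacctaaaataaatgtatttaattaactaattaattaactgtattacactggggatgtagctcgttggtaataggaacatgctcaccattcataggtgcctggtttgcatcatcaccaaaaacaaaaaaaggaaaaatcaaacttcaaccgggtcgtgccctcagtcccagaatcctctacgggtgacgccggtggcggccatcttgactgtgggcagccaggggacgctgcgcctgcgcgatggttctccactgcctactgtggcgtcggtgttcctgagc
Adpgk: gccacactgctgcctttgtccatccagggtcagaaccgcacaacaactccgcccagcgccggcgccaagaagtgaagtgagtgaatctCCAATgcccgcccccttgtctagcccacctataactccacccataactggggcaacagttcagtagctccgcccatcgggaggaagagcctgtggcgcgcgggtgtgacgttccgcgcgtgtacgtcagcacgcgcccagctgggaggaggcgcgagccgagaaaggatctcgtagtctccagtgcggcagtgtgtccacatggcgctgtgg
Il18: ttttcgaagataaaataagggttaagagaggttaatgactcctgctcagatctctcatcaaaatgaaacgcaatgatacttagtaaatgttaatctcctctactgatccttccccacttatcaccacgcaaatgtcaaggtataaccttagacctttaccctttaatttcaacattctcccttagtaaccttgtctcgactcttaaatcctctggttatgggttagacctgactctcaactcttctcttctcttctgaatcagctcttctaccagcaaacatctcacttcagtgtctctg

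RefSeq promoters were found for 7 of the 8 genes, all but Septin5. CCAAT occurred 6 times in the Pxmp4 window, 2 times in that of Zfp597 and 1 time each in those of Chi3l1 and Adpgk. It was not in the windows of Fry, Actr8 or Il18. Of 33469 rat promoters of the same length, 37.5% held it at least 1 time, and 14 (0.0418%) held it 6 times or more. GGGCGG was searched on both strands too and occurred 3 times for Adpgk and 1 time each for Pxmp4 and Zfp597, against 33.1% of all promoters with a match. TGACGT occurred 2 times, for Adpgk (7.94% of all promoters), and TATAAA in none of the 7 windows (14.2%). These matches describe letters in a reference strain and were not set against any binding data.

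Before the values, the arrays were checked against their labels. The melanotroph hormone gene Pomc averaged 868 ± 254 (SD, n = 5) in NIL and Pnmt, the adrenaline-synthesising enzyme, 192 ± 50.8 in SHR RVLM and 178 ± 39.1 in WKY RVLM. NIL pools also carried anterior pituitary signal, in varying amounts. The summed intensity of 4 anterior pituitary genes was 1158 to 12794 over NIL pools and at most 168 on any array of the other groups. The part of this tissue in the NIL levels was not tested. The array labelled PVN replicate 3 (PVN array 3) stood apart from its group. Its mean Spearman correlation with the other PVN arrays was 0.912, while those of the other 4 were 0.938 to 0.955. The summed intensity of 3 parvocellular neuron genes was 319 on it and 3541 to 4640 on the other PVN arrays. That of 6 choroid plexus and meningeal genes was 8144 on it and 626 to 897 on the other PVN arrays. This second sum was also high in other structures, at 6377 to 9157 over SON pools and 4431 to 5718 over NIL pools. Its part in the differences between structures was not tested. For the main results that rest on the PVN, the value without PVN array 3 is given as well. PVN means of the genes most like a member include it.

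The values are array intensities on a linear scale that the authors deposited, each array scaled to a common trimmed mean. They are comparable between arrays for 1 probe set and not between probe sets, so no gene's level is set against another's. A sum over marker genes is likewise compared only between arrays, and it leans on its brightest probe sets. Of the 15 probe sets, 10 passed the filter on dim signals (mean log2 above the 40th percentile), and the 5 that did not were 4 of Fry and 1 of Actr8. In bulk tissue, a higher signal from more cells of a type and from more RNA per cell cannot be told apart. Differences between strains are log2 SHR RVLM minus WKY RVLM with the standard error (SE) of the limma fit. They chose the genes and are a description without a test. The sequences of the array probes and of SHR and WKY were not used here, so for every gene a strain difference in signal from RNA abundance and one from sequence variants under the probes cannot be told apart.

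**Figure D1:**
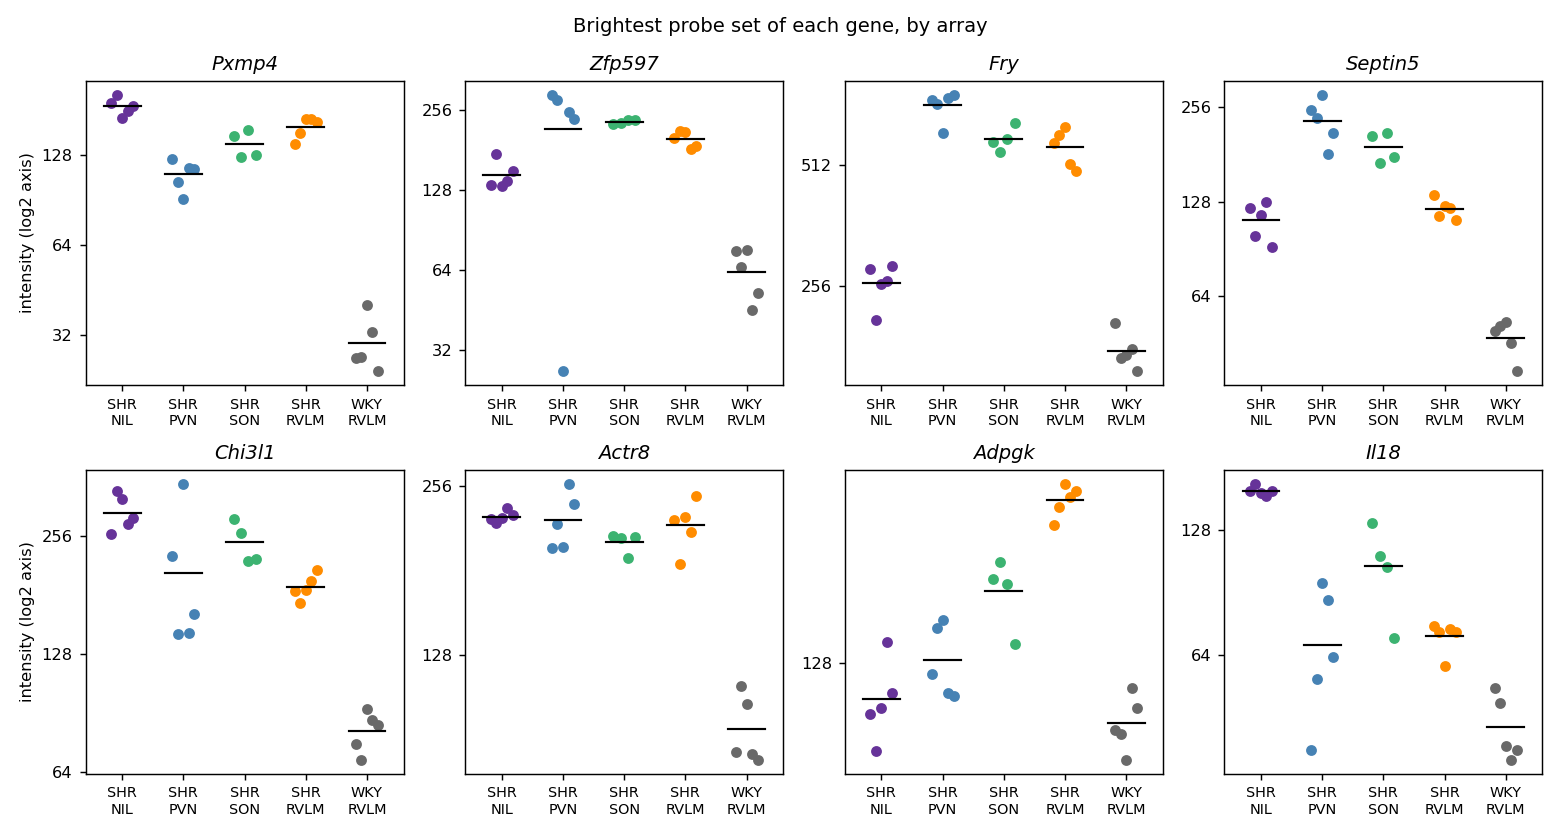
Intensity of the brightest probe set of each gene on every array, on a log2 axis, with a line at the group mean. The 5 WKY RVLM points lie below the SHR RVLM points of the same gene in all 8 panels, Adpgk falls towards the WKY RVLM level in the other SHR structures, and Zfp597 has 1 low PVN point at 26.7.

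Pxmp4 had the largest strain difference of the 8 genes and kept a high signal in every SHR structure. Its probe set 1383117_at read 191, 203, 170, 179 and 187 in SHR NIL, 124, 104, 91.1, 116 and 115 in SHR PVN, and 148, 126, 155 and 128 in SHR SON. In the RVLM it read 139, 151, 169, 168 and 165 in SHR and 26.8, 26.9, 40.2, 32.6 and 24.2 in WKY. Every SHR array of any structure lay above every WKY RVLM array. The RVLM means were 158 ± 13.2 in SHR and 30.2 ± 6.42 in WKY (SD, n = 5 each), a log2 difference of 2.38 (SE 0.141) or 5.21-fold. NIL pools were above all SHR RVLM pools, SHR RVLM and SON overlapped, and the 5 PVN pools lay below all SHR RVLM pools.

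The second Pxmp4 probe set, 1393421_at, is dimmer and was also higher in SHR. It read 92.2, 86.8, 96.3, 96.7 and 93.4 in SHR NIL, 54.3, 64.3, 34.3, 66.1 and 64.1 in SHR PVN and 51.8, 69.9, 39.1 and 70.0 in SHR SON. Its RVLM values were 73.5, 52.4, 63.4, 65.6 and 55.9 in SHR and 17.3, 15.9, 7.72, 9.97 and 16.1 in WKY. Again no SHR array came down to the WKY RVLM range. Its strain difference was 2.24 (SE 0.237), with means of 62.2 ± 8.34 in SHR RVLM and 13.4 ± 4.27 in WKY RVLM (SD, n = 5 each). The WKY values are as dim as those of probe sets below the filter, so the size is loosely determined: with a pseudocount of 16 it was 1.40, against 1.90 for the first probe set. PVN, SON and SHR RVLM overlapped here, while all NIL pools lay above them.

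Actr8 had the most even level over the SHR structures. Its probe set 1373096_at read 224, 220, 225, 234 and 228 in SHR NIL, 199, 219, 200, 259 and 238 in SHR PVN and 209, 207, 191 and 208 in SHR SON. RVLM pools gave 223, 186, 226, 212 and 246 in SHR and 86.1, 113, 105, 85.3 and 83.3 in WKY. The 19 SHR arrays spanned 186 to 259 with all structures overlapping the SHR RVLM, and the highest WKY array was at 113. The strain difference was 1.18 (SE 0.117), from means of 218 ± 21.9 in SHR RVLM and 94.6 ± 13.7 in WKY RVLM (SD, n = 5 each). The other Actr8 probe set, 1380488_at, was near the bottom of the array with intensities of 0.372 to 15.8, and its difference of 0.09 (SE 0.686) bears little on the gene.

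Adpgk was the exception: both of its probe sets were high in the SHR RVLM and lower in every other SHR structure. Probe set 1374958_at read 107, 93.9, 109, 138 and 115 in SHR NIL, 123, 145, 149, 115 and 114 in SHR PVN and 172, 183, 169 and 137 in SHR SON. The RVLM arrays read 208, 222, 241, 230 and 235 in SHR and 101, 99.6, 90.9, 117 and 109 in WKY. None of the 14 NIL, PVN and SON arrays reached the lowest SHR RVLM array. NIL lay in the WKY RVLM range on 4 of 5 arrays, PVN on 2 of 5 and SON on none of 4.

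Probe set 1377952_at of Adpgk split the SHR structures further. It read 56.0, 56.7, 60.5, 72.4 and 74.1 in SHR NIL, 62.3, 64.4, 108, 78.9 and 55.3 in SHR PVN and 82.9, 95.6, 79.6 and 78.8 in SHR SON. RVLM intensities were 246, 189, 247, 278 and 196 in SHR and 85.7, 82.1, 77.2, 74.7 and 87.0 in WKY. All NIL pools were below the lowest WKY RVLM pool, and SON was inside the WKY RVLM range on 3 of 4 arrays. Against the SHR RVLM, NIL differed by −1.94 (SE 0.154), PVN by −1.73 (SE 0.154; −1.89 without PVN array 3) and SON by −1.53 (SE 0.164) on the log2 scale. The 2 probe sets gave strain differences of 1.11 (SE 0.112) and 1.47 (SE 0.124), so the direction was shared and the size was not. The summed intensity of 6 pan-neuronal genes also differed between structures, with ranges of 2081 to 2358 over NIL pools, 5475 to 6185 over PVN pools and 4159 to 5043 over SON pools. Its range was 9961 to 12015 for the SHR RVLM and 9317 to 11552 for the WKY RVLM, where Adpgk was low. The part of neuronal content in the Adpgk differences was not tested.

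Septin5 was higher in both hypothalamic nuclei than in the SHR RVLM. Its probe set 1386955_at read 122, 99.4, 116, 128 and 91.9 in SHR NIL, 250, 236, 280, 182 and 211 in SHR PVN and 207, 170, 211 and 177 in SHR SON. Among RVLM arrays the readings were 134, 115, 124, 122 and 112 in SHR and 49.5, 51.5, 53.0, 45.3 and 36.9 in WKY. All PVN and SON pools were above all SHR RVLM pools, while NIL overlapped the SHR RVLM on 3 of 5 arrays. The strain difference in the RVLM was 1.34 (SE 0.112), with means of 121 ± 8.52 in SHR and 47.3 ± 6.46 in WKY (SD, n = 5 each). A further probe set that the annotation gives to Septin5 and a second gene was left out by the single-gene rule.

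Fry, the furry scaffold, had 5 probe sets, and a strain difference was seen in 1 of them. Probe set 1377011_at, its brightest, read 282, 212, 259, 264 and 288 in SHR NIL, 739, 724, 613, 750 and 762 in SHR PVN and 582, 550, 593 and 650 in SHR SON. For the RVLM the readings were 578, 607, 636, 515 and 495 in SHR and 208, 170, 173, 179 and 158 in WKY. PVN, SON and SHR RVLM stood close together, and all NIL pools lay between the RVLM groups, just above the highest WKY pool. The strain difference was 1.64 (SE 0.0952) and the difference of NIL from the SHR RVLM was −1.21 (SE 0.0982).

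The other 4 Fry probe sets were all below the filter, with RVLM means of 10.6 to 21.3 in SHR and 15.1 to 23.4 in WKY. Their strain differences were −0.14 (SE 0.257) for 1380073_at, −0.10 (SE 0.338) for 1390712_at, 0.48 (SE 0.495) for 1395407_at and −0.30 (SE 0.484) for 1379082_at, and the strains overlapped in each. At such signals a change of the size read by 1377011_at may not be visible. Of these probe sets, 1380073_at did separate groups, with 37.4 to 40.6 over SON pools against at most 34.8 in the RVLM of either strain. A difference of the whole Fry transcript and one of the stretch under 1 probe set cannot be told apart. Zfp597, Septin5, Chi3l1, Actr8 and Il18 also have 1 usable probe set each. Pxmp4 and Adpgk have 2 each that share the direction, but where these lie on the transcripts was not looked at.

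**Figure D2:**
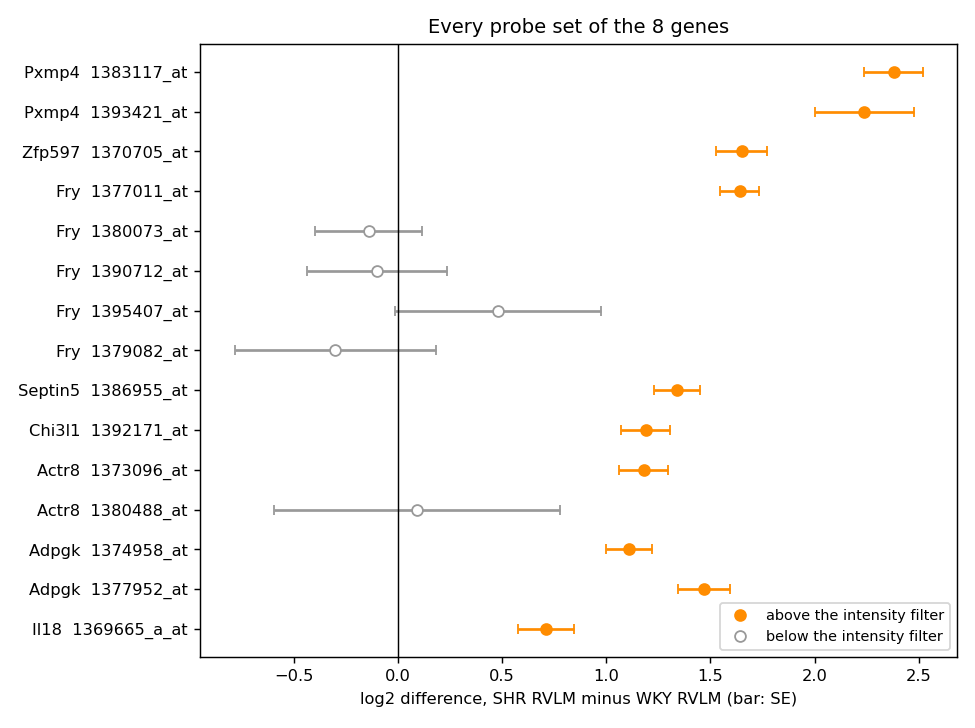
Log2 difference of SHR RVLM minus WKY RVLM for all 15 probe sets, with bars of 1 SE; filled points passed the filter on dim signals and open points did not. The 10 filled points lie from 0.71 to 2.38, and the 5 open points lie from −0.30 to 0.48 with wide bars.

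Zfp597 had a high signal in all SHR structures but on 1 array. Its probe set 1370705_at read 134, 175, 133, 138 and 151 in SHR NIL, 292, 279, 26.7, 251 and 237 in SHR PVN and 227, 228, 235 and 235 in SHR SON. Over the RVLM pools it gave 201, 214, 211, 182 and 187 in SHR and 75.4, 65.8, 76.5, 45.4 and 52.5 in WKY. The value of 26.7, on PVN array 3, was below every WKY RVLM array, whereas the other 4 PVN arrays were above every SHR RVLM array. The PVN mean was 217 ± 109 (SD, n = 5), and 265 ± 25.2 (SD, n = 4) without that array. The strain difference in the RVLM was 1.65 (SE 0.123), with means of 199 ± 14.4 in SHR and 63.1 ± 13.8 in WKY (SD, n = 5 each).

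The low Zfp597 value was not alone on PVN array 3. On that array 116 probe sets were more than 1 log2 unit below all other SHR arrays, against 3 to 76 on each of the other 18, and Zfp597 ranked 13 of 18625 by this gap (2.18). Ephx2, the soluble epoxide hydrolase gene with the largest rise in the SHR RVLM, ranked 14 (2.10), with 19.9 on PVN array 3 and 100 to 134 on the other PVN arrays. The class I histocompatibility gene RT1-CE16, also among the largest rises, had 53.6 on that array and 177 to 206 on the other PVN arrays. A further count took the 49 genes that were higher in SHR RVLM without overlap, the genes described here among them. PVN array 3 was at or below the highest WKY RVLM value for 15 of them, and the other PVN arrays for 12 to 17. What sets PVN array 3 apart was not tested.

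Chi3l1 was above the WKY RVLM level on all SHR arrays and was highest in the NIL. Its probe set 1392171_at read 258, 333, 317, 275 and 284 in SHR NIL, 227, 144, 348, 145 and 162 in SHR PVN and 282, 261, 221 and 224 in SHR SON. RVLM readings were 185, 172, 186, 196 and 209 in SHR and 75.2, 68.6, 92.6, 86.6 and 84.4 in WKY. The PVN pools were the most scattered, with 3 below and 2 above the whole SHR RVLM range, and the highest PVN value came from PVN array 3. The strain difference in the RVLM was 1.19 (SE 0.118), from 190 ± 13.8 in SHR and 81.5 ± 9.50 in WKY (SD, n = 5 each). The summed intensity of 6 astrocyte genes was 11784 on PVN array 3 and 8248 to 9234 on the other PVN arrays, but 1701 to 2037 in NIL, where Chi3l1 was highest. RVLM pools ranged from 11003 to 13636 in SHR and 11258 to 13784 in WKY. The summed intensity of 8 microglia and macrophage genes was 1172 to 1548 in NIL, 827 to 1158 in SON and 773 to 985 in PVN, with 855 on PVN array 3. For this sum, RVLM pools ranged from 593 to 765 in SHR and 646 to 731 in WKY. The part of either cell type in the Chi3l1 values was not tested.

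Il18 had the smallest strain difference of the 8 genes, and its highest level was in the NIL. Its probe set 1369665_a_at read 158, 165, 157, 154 and 158 in SHR NIL, 38.0, 56.2, 95.4, 86.8 and 63.3 in SHR PVN and 133, 111, 104 and 70.4 in SHR SON. The RVLM pools had 75.2, 72.9, 60.3, 74.1 and 72.9 in SHR and 53.4, 49.2, 38.8, 36.0 and 38.0 in WKY. NIL stood clear of all other groups, SON and SHR RVLM overlapped, and the PVN pools reached down into the WKY RVLM range on 1 array. The strain difference was 0.71 (SE 0.135), with means of 71.1 ± 6.08 in SHR RVLM and 43.1 ± 7.71 in WKY RVLM (SD, n = 5 each).

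Genes of microglia and macrophages, cells known to make Il18, followed its level in part. The summed intensity of 8 markers ranged from 1172 to 1548 over NIL pools, 773 to 985 over PVN pools and 827 to 1158 over SON pools. RVLM pools had 593 to 765 in SHR and 646 to 731 in WKY. The sum was highest in NIL, as Il18 was, but it was higher in PVN than in SHR RVLM, where Il18 averaged 68.0 and 71.1. Without PVN array 3 the PVN mean of Il18 was 61.1. The RVLM groups overlapped in this sum, although they did not in Il18. Of the 6 markers tested between the strains 0 were called, against 1.41% of all genes (limma). At that share a count of 0 is what the background gives. C1qa, by its probe set intensity, weighed most in the sum, with 612 ± 77.6 in NIL and 265 ± 54.4 in SHR RVLM (SD, n = 5 each). Cx3cr1 went the other way, with 18.9 ± 5.49 in NIL and 34.3 ± 6.18 in SHR RVLM, and Itgam had 17.3 ± 7.13 and 19.7 ± 5.33 in these groups. None of the 8 markers was at 0 in NIL. The part of these cells in the Il18 differences between structures and between strains was not tested.

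The strain fit called 1.58% of 18625 probe sets, 0.730% higher in SHR, and 0.518% of 10415 genes higher (limma, Benjamini-Hochberg adjusted p under 0.05). All 10 probe sets and all 8 genes were among them, which is how they were picked. The genes ranked 2, 4, 5, 6, 7, 8, 10 and 32 among 54 such rises. Just outside the first 7 was LOC100912202 at 1.05, next to Adpgk at 1.11, and just below Il18 at 0.71 was Wdr36 at 0.70.

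How far the other SHR structures lay above the WKY RVLM was described by how many genes had every array above the highest WKY RVLM array. By the brightest probe set this held for 7 of 8 genes in NIL (all but Adpgk), for 5 of 8 in PVN (not Zfp597, Adpgk or Il18) and for 8 of 8 in SON. The same was true of 34.2% of all 18625 probe sets in NIL, 17.5% in PVN and 27.4% in SON. Among the 124 other probe sets called higher in SHR RVLM that also passed the filter over all 24 arrays, it was true of 57.3% in NIL, 36.3% in PVN and 57.3% in SON. The genes that met it in all 3 structures were Pxmp4, Fry, Septin5, Chi3l1 and Actr8, against 9.56% of all probe sets and 26.6% of the other 124. On values shifted to a common array median the NIL count was 6, since the lowest NIL array then fell within the WKY RVLM range for Fry. Without PVN array 3 the PVN count was 6, with Zfp597 added, against 23.9% of all probe sets and 48.4% of the other 124. The WKY RVLM values helped to choose the 8 genes, most of them among the largest rises. The counts therefore favour these genes and are no test. Lying above WKY RVLM is also not the same as sharing the SHR RVLM level. Fry in NIL was at −1.21 (SE 0.0982) from SHR RVLM and Adpgk in SON at −0.54 (SE 0.137), and both were counted. Adpgk was counted in SON by 1374958_at, whereas 1377952_at was above the highest WKY RVLM array on 1 of 4 SON arrays.

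The median size of the difference from SHR RVLM over the 8 genes was 0.54 in NIL, 0.30 in PVN and 0.28 in SON, close to the 0.59, 0.35 and 0.37 of all probe sets. Over the 124 other probe sets called higher in SHR RVLM it was 0.70, 0.49 and 0.51. These medians are no test, as the SHR RVLM values helped to choose the genes. On the 4 PVN arrays besides array 3 the medians were 0.34 over the 8 genes, 0.37 over all probe sets and 0.55 over the other 124. Single genes ranged widely in NIL, with a difference from SHR RVLM of 1.07 (SE 0.176) for Il18 and −1.21 (SE 0.0982) for Fry. Without PVN array 3 the PVN minus SHR RVLM difference of Zfp597 was 0.34 (−0.30 with it) and that of Chi3l1 was −0.25 (−0.03 with it).

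**Figure D3:**
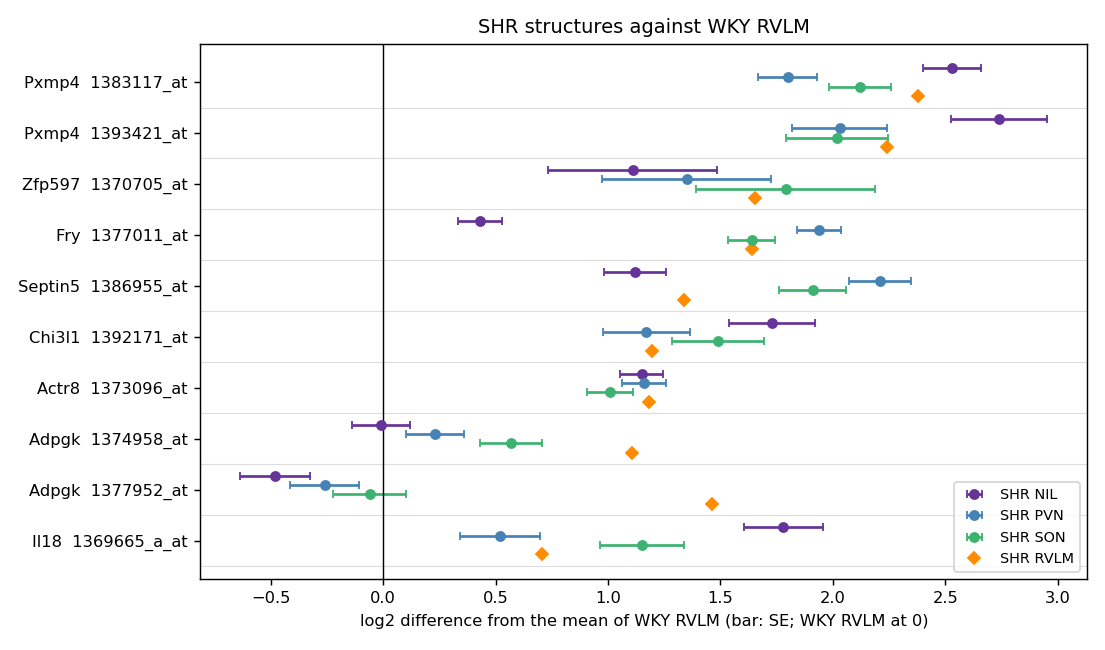
Log2 difference of each SHR group from the mean of WKY RVLM for the 10 probe sets above the filter, with bars of 1 SE for NIL, PVN and SON. Actr8 points lie together near 1.15, Fry in NIL lies at 0.43, and both Adpgk probe sets show SHR RVLM far to the right of the other structures.

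Differences among NIL, PVN and SON lie outside the contrast that chose the genes and were tested over 19 SHR arrays. NIL against the average of both nuclei called 57.0% of all probe sets (limma), 29.8% higher and 27.2% lower, and 6 of the 10 probe sets, 3 higher and 3 lower, a share near that background. Il18 was higher by 0.94 (SE 0.161, adjusted p = 3.39e-05), and both Pxmp4 probe sets were higher, by 0.56 (SE 0.106, adjusted p = 9.52e-05) and 0.72 (SE 0.154, adjusted p = 0.000400). Fry was lower in NIL by the largest amount, −1.35 (SE 0.0892, adjusted p = 1.59e-11), with all 5 NIL pools below all 9 PVN and SON pools. Septin5 was lower at −0.94 (SE 0.128, adjusted p = 1.56e-06), and so was Adpgk by 1374958_at, at −0.41 (SE 0.115, adjusted p = 0.00476). With PVN array 3 left out these 6 were also called, at 1.02 for Il18, 0.54 and 0.64 for Pxmp4, −1.37 for Fry, −0.90 for Septin5 and −0.37 for Adpgk.

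The NIL differences of the other 4 probe sets did not pass. Actr8 differed by 0.06 (SE 0.0828, limma adjusted p = 0.548), Adpgk by 1377952_at by −0.32 (SE 0.146, adjusted p = 0.0692), Chi3l1 by 0.40 (SE 0.180, adjusted p = 0.0647) and Zfp597 by −0.46 (SE 0.359, adjusted p = 0.285). Without PVN array 3, Zfp597 was called lower in NIL at −0.78 (limma adjusted p = 4.39e-07) and Chi3l1 higher at 0.51 (adjusted p = 0.00213), which made 8 of 10 against 60.4% of all probe sets. The sum of neuronal genes, given above for Adpgk, was lowest in NIL, where Fry and Septin5 were lower than in PVN and SON. It was highest in the RVLM, however, while Septin5 averaged 121 ± 8.52 in SHR RVLM, close to its 112 ± 15.3 in NIL (SD, n = 5 each). Of the single neuronal genes, Rbfox3 averaged 42.1 in NIL and 40.2 in SON, and Syt1 35.5 and 35.3. The other 4 were lower in NIL than in SON: Tubb3 at 79.4 and 795, Nefl at 95.7 and 546, Gap43 at 297 and 898, and Snap25 at 1706 and 2283. The parts of neuronal content, of anterior pituitary and of meningeal tissue in these differences were not tested.

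PVN minus SON called 14.7% of all probe sets, 8.17% higher and 6.54% lower, and 1 of the 10. Il18 was lower in PVN by 0.63 on the log2 scale (difference −0.63, SE 0.193, limma adjusted p = 0.0313), and the groups overlapped. This call was lost when any of PVN arrays 1, 2 and 5 or SON arrays 1, 2 and 3 was left out, with adjusted p of 0.0615 to 0.122. Without PVN array 3 the count was 4, against 21.0% of all probe sets: Il18 at −0.79 (limma adjusted p = 0.00179), Chi3l1 at −0.55 (adjusted p = 0.0196), Adpgk by 1374958_at at −0.40 (adjusted p = 0.0390) and Fry at 0.34 (adjusted p = 0.0313). With that array Chi3l1 was at −0.32 (adjusted p = 0.342), Adpgk at −0.33 (adjusted p = 0.112) and Fry at 0.30 (adjusted p = 0.0625). The choroid plexus and meningeal sum differed between PVN and SON, as given above, and its part in these differences was not tested.

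Genes known to work with the 8 were called between the strains at about the share of all genes. Over 8 lists with 165 genes, 121 had a probe set in the strain fit, 0 were called higher and 1 lower in SHR, against 1.41% of all genes called in either direction (limma), so the count says nothing particular about these genes. No member of the lists for peroxisome biogenesis (20 tested), glycolysis (19), the INO80 and related complexes (22), the exocytosis machinery (17), the other septins (9), the inflammasome and interleukin-1 family (9) or reactive astrocytes (9) was called. In the list of NDR and LATS kinases, Stk4, an upstream kinase of that pathway, was lower in SHR RVLM at 59.4 ± 11.0, against 95.0 ± 9.78 in WKY RVLM (SD, n = 5 each; log2 difference −0.72, SE 0.129, limma adjusted p = 0.00452). The list medians lay from −0.21 (reactive astrocyte genes) to 0.01 (peroxisome genes), and that of all genes was −0.03. Among the septins, the relatives of Septin5 differed by −0.25 (Septin9, adjusted p = 0.483) to 0.13 (Septin4, limma adjusted p = 0.732). Of the 43 cell type markers tested, 1 was called: Ttr, the transthyretin gene of the choroid plexus, had 68.4 ± 28.9 in SHR RVLM and 144 ± 56.3 in WKY RVLM (SD, n = 5 each; log2 difference −1.11, SE 0.271, limma adjusted p = 0.0485). Its call was lost when any RVLM array but SHR 4 or WKY 1 was left out, with adjusted p of 0.0643 to 0.132. Summed over 6 choroid plexus and meningeal markers, RVLM pools had 2451 to 3852 in SHR and 3073 to 5097 in WKY, and the part of this tissue in the strain differences was not tested.

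The genes that lie beside the 8 on their chromosomes were also counted. With 5 measured genes taken on either side of each in the RefSeq gene order of GRCr8, 0 of 80 were called higher and 2 were called lower in SHR RVLM (2.50%, against 0.518% higher and 0.893% lower of all genes). At such low shares a count of 0 higher is what the background gives. Elavl1, which encodes an RNA-binding protein that stabilises messenger RNA and lies 2 measured genes from Fry, had 83.2 ± 23.1 in SHR and 189 ± 26.8 in WKY (SD, n = 5 each; log2 difference −1.24, SE 0.172, limma adjusted p = 0.000407). Hcfc1r1, 3 measured genes from Zfp597, had 308 ± 41.9 in SHR and 415 ± 20.5 in WKY (−0.47, SE 0.111, adjusted p = 0.0391). The Hcfc1r1 call was lost when any array but SHR RVLM 4 was left out, and that of Elavl1 when the kept probe sets of a gene were averaged. Of the neighbours of Adpgk, Bbs4 had 120 ± 7.44 in SHR and 90.1 ± 6.89 in WKY (0.38, SE 0.104, adjusted p = 0.0885). Bbs4 was named after its values were seen, because it and Hmgb1 near Fry were called higher with values as deposited (adjusted p = 0.0311 and 0.0349).

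**Figure D4:**
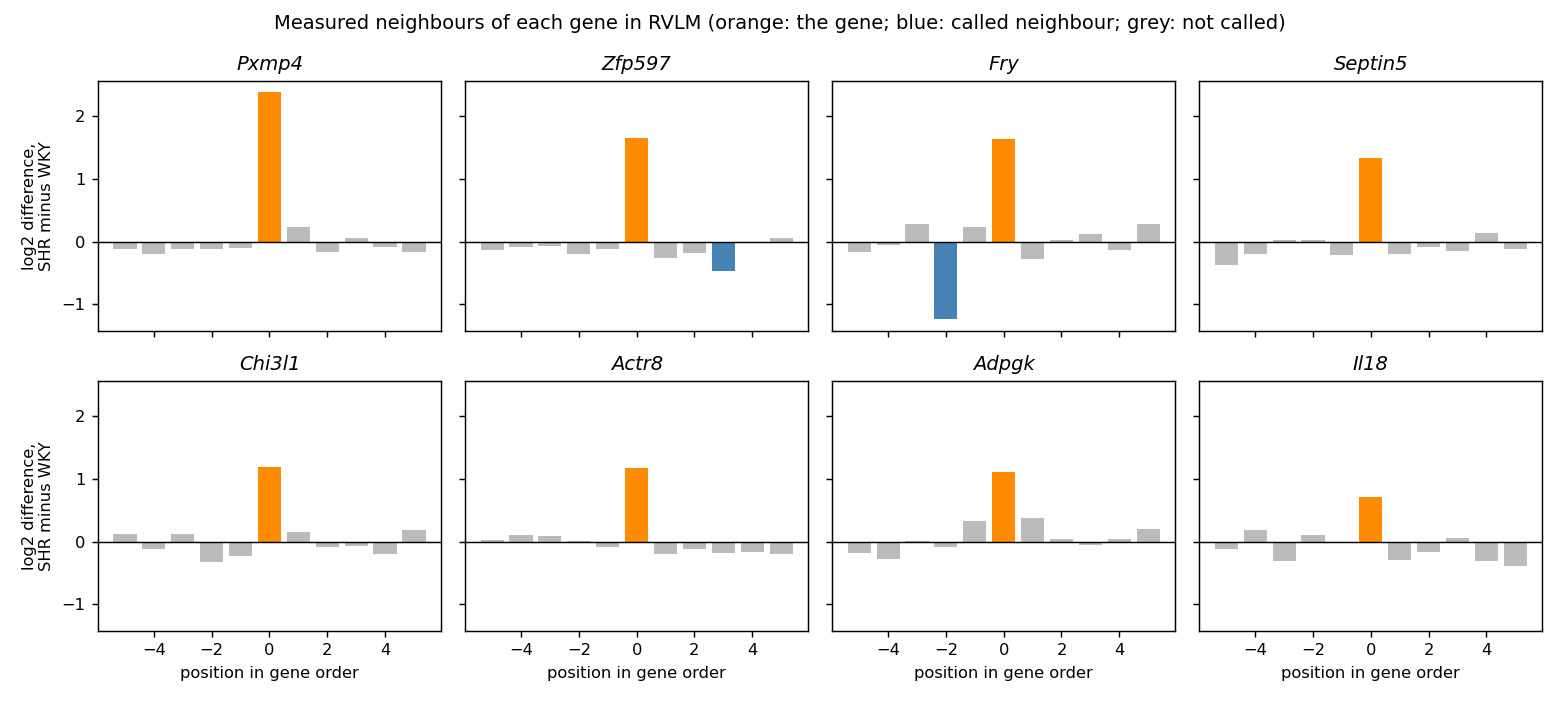
Log2 difference of SHR RVLM minus WKY RVLM for each of the 8 genes (orange, position 0) and for 5 measured genes on either side in gene order; called neighbours are blue. The 8 orange bars reach 0.71 to 2.38, and the called neighbours, Elavl1 at −1.24 near Fry and Hcfc1r1 at −0.47 near Zfp597, point down.

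The genes whose level over the 24 arrays was most like that of a member were found by Pearson's r on log2 intensity among 10573 genes. Such an r mixes strain, structure and array, and is a description. Leaving out PVN array 3 moved each r below by at most 0.08, the most for Zfp597 with Vps52, which was 0.73. The genes closest to Pxmp4 were RT1-CE16 (r = 0.92) and Ephx2 (0.90). RT1-CE16, like Pxmp4, was lowest on average in WKY RVLM: it averaged 396 in NIL, 162 in PVN, 179 in SON and 152 in SHR RVLM, against 30.5 in WKY RVLM. Actr8 was closest to Mettl2 (0.90), a tRNA methyltransferase gene with 30.5 in SHR RVLM and 6.02 in WKY RVLM, and to RT1-CE16 (0.86). Zfp597 was closest to Vps52 (0.81) and Ephx2 (0.80), and Fry to Lrp4 (0.85) and Rrs1-ps9 (0.82).

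Septin5 also resembled Rrs1-ps9 (0.92), which averaged 86.5 in NIL, 129 in PVN, 113 in SON, 82.1 in SHR RVLM and 37.1 in WKY RVLM, and it resembled Elmod3 (0.87). Chi3l1 was closest to Dpy19l4 (0.87) and Ifgga2l1 (0.86), and Adpgk to Abhd16a (0.81) and Tapt1 (0.78). Abhd16a, a membrane lipase gene, was likewise highest on average in SHR RVLM, with 196 in NIL, 239 in PVN, 208 in SON, 387 in SHR RVLM and 211 in WKY RVLM. Il18 was closest to Clic2 (0.93) and Cybb (0.92). Cybb, the phagocyte NADPH oxidase subunit, averaged 130 in NIL, 28.7 in PVN, 66.3 in SON, 18.7 in SHR RVLM and 9.14 in WKY RVLM, the same order of groups as Il18 but for PVN and SHR RVLM.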

How the data were processed

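The arrays are of the Affymetrix rat expression type. What the authors deposited is intensity per probe set on a linear scale, made with GCOS 1.2 per the submitters' processing notes, with a 2% trimmed mean of about 100 on every array. The sources used here give no detection calls. Array medians lay between 35.9 and 46.5, and precision is limited by how many arrays there are.

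Of 31099 probe sets, 57 controls were left out. By the array annotation 20826 carried 1 gene, 436 several and 9780 none, and probe sets with several genes were not given to a gene. Intensities were log2-transformed with no pseudocount, each array was shifted to the mean array median, and probe sets above the 40th percentile of mean log2 were kept (18625). Differences were fitted with lmFit and eBayes of limma 3.58.1 (R 4.3.3, intensity trend), with calls at Benjamini-Hochberg adjusted p under 0.05. The strain fit used the 10 RVLM arrays, the tests between structures the 19 SHR arrays, and the levels beside both RVLM groups all 24. A gene stands by its brightest kept probe set. The fits were tested on simulated data. Same-numbered arrays were checked for pairing, and their deviations were at most weakly correlated, all positive for PVN with SON (0.08 to 0.17).

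The 8 genes, the gene lists and the markers were chosen with earlier results of these data known. Named besides the 8 were at most 3 called genes per list, called neighbours, and the 2 genes most like each member, other names being marked. Tried as alternatives were a pseudocount of 16, quantile normalization, unshifted values as deposited, a stricter filter (60th percentile) or none, no trend, the replicate number as a block, other arrays in the fit, the mean of a gene's kept probe sets, and each array left out. Leaving out arrays for the lists and neighbours, giving the levels on shifted values, and giving PVN values and correlations without PVN array 3 were chosen after seeing the data.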

Additional observations from a re-analysis of the deposited data

Results flagged for a closer look

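In 4 of 50 sets of values of 1 probe set in 1 group, a single array lay far from the others by Dixon's test at the 95% level, which chance does in about 1 set in 20. Zfp597 had 26.7 on PVN array 3, and 237 to 292 on the other PVN arrays. Fry had 613 on the same array, and 724 to 762 on the others. Actr8 had 191 on SON array 3, and 207 to 209 on the other SON arrays. Il18 had 60.3 on SHR RVLM array 3, and 72.9 to 75.2 on the other SHR RVLM arrays.

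The probe set that the annotation gives to Septin5 together with a second gene was left out of the results. It averaged 114 ± 15.0 in NIL, 164 ± 38.1 in PVN and 168 ± 12.6 in SON. In the RVLM it averaged 99.4 ± 6.00 in SHR and 57.0 ± 9.71 in WKY (SD, n = 5 each), a log2 difference of 0.79 (SE 0.144), so it was higher in SHR as the probe set of Septin5 alone was. Which of its genes it reads cannot be told apart.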

How the results depend on the processing

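The strain differences of the 10 kept probe sets held their direction under every alternative in which they were fitted; the filter at the 60th percentile left out Pxmp4 by 1393421_at and Il18. With a pseudocount of 16, those of Pxmp4 shrank to 1.90 and 1.40, of Zfp597 to 1.44 and of Septin5 to 1.10, since adding a constant compresses dim WKY values. The strain fit called 295 probe sets, and 212 to 283 with each array left out. NIL against the average of both nuclei called 10612 (9804 to 11243 with each array left out), and of the 10 probe sets it called 6 (6 to 8). PVN minus SON called 2740, 1386 with only the arrays compared, and 1616 to 3905 with each array left out, lowest without SON array 3 and highest without PVN array 3. Of the 10 probe sets it called 1, but 3 with values as deposited or quantile normalization (Il18, Pxmp4 by 1383117_at at −0.34 and −0.37, and Adpgk by 1374958_at at −0.36 and −0.40), 2 with a pseudocount of 16 (Fry added), 0 with only the arrays compared, and 0 to 4 with each array left out. The cause was not tested. Genes with every array above the highest WKY RVLM array numbered 7 in NIL (7 to 7 with each array left out), 5 in PVN (5 to 6) and 8 in SON (8 to 8), and the counts on shifted and on quantile-normalized values were 6 in NIL, where Fry dropped out on the shifted values, 5 in PVN and 8 in SON. The gene lists held 1 call, 2 with the mean of a gene's kept probe sets (Septin9 at −0.52 added), and 1 to 2 with each array left out. The neighbours held 2 calls, 4 with values as deposited and with quantile normalization, 1 with the mean of kept probe sets, and 1 to 2 with each array left out. Dim signal limits the 5 probe sets under the filter, whose strain differences had an SE of 0.257 to 0.686. A change in RNA may not show on them.

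The replicate numbers are not stated to pair arrays, and same-numbered arrays of different groups had deviations correlated at −0.12 to 0.17. For PVN with SON these correlations were all positive, 0.08 to 0.17, and those of differently numbered arrays were −0.21 to 0.18. With the replicate number as a block, the strain fit called 245, PVN minus SON 2488 and 0 of the 10 probe sets (Il18 at −0.63, limma adjusted p = 0.0566), and NIL against the average of both nuclei 10434 and 6 of the 10.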
